A study of Mus musculus with 4 samples.

Results

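The response described here is that of RAW264.7 cells, an established mouse macrophage-like line, to AEPS, a polysaccharide from the roots of the kiwifruit relative Actinidia eriantha, on the 2 arrays labelled knockdown. The series holds 4 arrays, and these 2 were chosen by their scanner-file labels, 1 for cells kept in DMEM medium for 4 h and 1 for cells given 50 µg/mL AEPS for 4 h. Both cultures carried a vector that encodes an artificial microRNA aimed at the long intergenic non-coding RNA Linc-AAM, together with a green fluorescent protein, and both were selected with 6 µg/mL blasticidin. The other 2 arrays hold the same DMEM and AEPS conditions for cells with a scramble vector. The cultures were selected in bulk, so they may mix cells with different integrations, and none of the 4 arrays holds cells without a vector. Of 36086 genes or array names, 22326 were well above background on 1 or both arrays labelled knockdown and are the genes described. Each group is 1 array and nothing in the labels says that a culture was repeated, so no difference below has a replicate error or a test. Calls of higher and lower follow a fixed size. Genes well above background on both arrays were called at a difference of at least 2-fold, and genes below background on 1 array where the bound on the fold reached 2-fold.

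Macrophages sense microbial and plant polysaccharides and lipids through surface and internal receptors such as the Toll-like receptors. The signals converge on NF-kB and MAP kinases, which switch on cytokines, chemokines and their own inhibitors, and on interferon regulatory factors, which start an interferon response that feeds back on the same cells. Activated macrophages also rewire their metabolism and slow their cell cycle.

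The deposited sources disagree on which line is which. The series value table's columns labelled knockdown ranked the probes like the scanner files labelled scramble of the same treatment (Spearman correlation across 55657 probes, which are not replicates, 1.0 in DMEM and 1.0 under AEPS) and less like their own scanner files (0.969 and 0.969). The lines are named here as on the scanner files. Linc-AAM itself matched 0 names on the array, so its level was not analysed here and the knockdown was not checked. The column pair that the table labels knockdown gave 1433 calls higher and 1342 lower, and the pair that matches these arrays gave 975 and 877.

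On the arrays labelled knockdown, 54.8% of spots were well above background under AEPS and 53.4% in DMEM, and 0 spots were saturated. All 14 macrophage markers examined were well above background on both arrays, including Csf1r, the receptor for macrophage growth factor (212027 in DMEM and 161023 under AEPS). Of these markers Cd14 was called higher (47866 to 130328, 2.67-fold higher) and Fcgr1 lower (567 to 153, 3.78-fold lower). The summed intensity of the 14 was 484979 in DMEM and 545611 under AEPS, and Cd14 had the largest rise within it. Markers of other cells gave mixed signals. Well above background on both arrays were 4 of 8 T cell markers, 3 of 7 B cell, 1 of 6 NK cell, 2 of 6 epithelial and 3 of 6 endothelial ones, and of 6 neutrophil markers on the array 3. Among T cell markers Cd3e (821 in DMEM and 908 under AEPS), Cd4 (2291 and 2207) and Lck (533 and 594) were detected, while Cd3d and Cd3g were not detected on either array. Likewise Cd79a (56.0 and 83.3), Cd22 (727 and 1230), Prf1 of NK cells (331 and 405), Elane of neutrophils (894 and 1230) and Kdr of endothelium (4823 and 5333) were detected, while Ms4a1, Ncr1, Epcam, Cdh1 and Cdh5 were not. Of 8 fibroblast markers 2 were called higher, namely Pdgfrb (19.3 to 49.1, 2.49-fold higher) and Fap (3.4, below background, to 54.5, at least 3.19-fold higher). The summed intensity of the 8 was 81.9 in DMEM and 229 under AEPS. Only 2 of the 8 were well above background in DMEM and 4 under AEPS, so the sums include readings below background. Among markers of the remaining cell types the B cell gene Blnk (13797 to 33221, 2.36-fold higher) and the neutrophil gene S100a8 (50.3 to 113, 2.21-fold higher) were called higher. What part other cells have in the results was not tested. In such bulk cultures, fewer cells with an RNA and less of it per cell cannot be told apart.

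Under AEPS 1035 genes were called higher, 4.64% of those detected, and 779 were called lower, 3.49%. The median difference over all genes measured on both arrays was 0.05 on the log2 scale, and the middle 90% of them lay between -0.82 and 0.87. The higher genes reached far larger sizes than the lower ones. At least 4-fold higher were 387 genes and lower 82, at least 8-fold 171 and 12, at least 16-fold 71 and 0, and at least 64-fold 12 and 0. Of the calls, 838 higher and 647 lower were measured on both arrays, and 197 and 132 rest on a bound. A bound sets the bright array against the lowest intensity well above background on the dim one (16.7 in DMEM, 16.1 under AEPS). Where the dim probe's own value is higher, that value is used. A bound is written as at least, which holds for the scanner's processed signal, and another background correction can give a smaller value. Intensities are given as scanned, while folds are taken after each array was set to its 75th percentile (439.1 in DMEM, 448.3 under AEPS), so that they differ slightly from the plain ratio. For probes printed 5 or more times, the SD over spots of the same array had a median of 0.0458 log2 units in DMEM and 0.0364 under AEPS, an error of 0.0585 for a difference. Cultures, RNA extracts and labelling add a spread that these arrays cannot show.

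**Figure D1:**
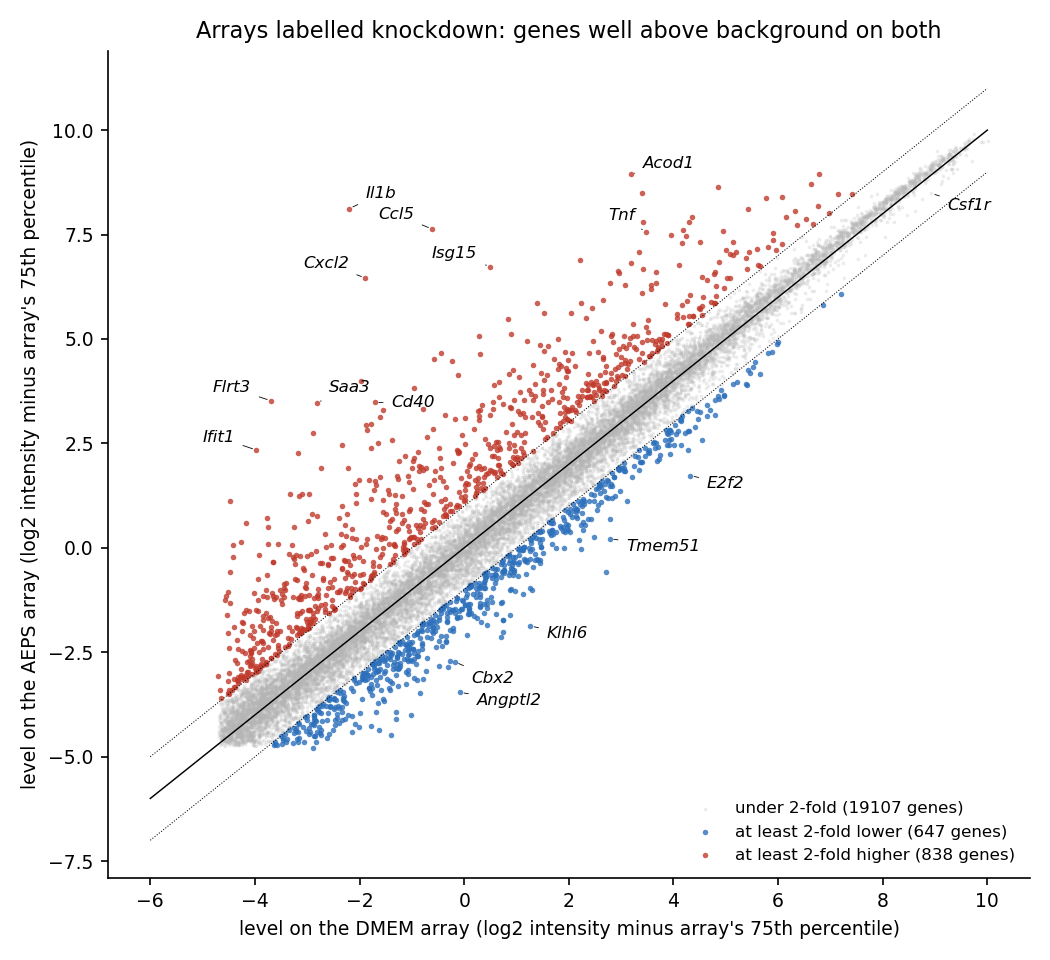
Level of each gene on the array labelled knockdown under AEPS (vertical axis) against that in DMEM (horizontal axis), both as log2 intensity minus the array's 75th percentile, for the genes well above background on both arrays. The solid line marks equal levels and the dotted lines 2-fold; 838 genes lie above the upper and 647 below the lower dotted line, and the points above spread much farther from it.

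The calls were spread unevenly over the levels in DMEM. Among the lowest-level 25% of genes measured on both arrays 5.17% were called higher and 1.75% lower, and among the highest-level 25% the shares were 2.47% and 1.67%. Lower calls were most frequent in the middle, with 4.99% and 4.16%. A gene near background in DMEM cannot be measured as lower, which limits the count of lower calls among the dimmest genes.

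The 3 genes with the largest measured differences encode secreted mediators. Il1b, the cytokine interleukin 1 beta, read 95.8 in DMEM and 124876 under AEPS, 1278-fold higher. Cxcl2, a chemokine for neutrophils, read 118 in DMEM and 39553 under AEPS, 327-fold higher, and Ccl5, which attracts T cells and monocytes, read 288 in DMEM and 88532 under AEPS, 301-fold higher. All 3 read below the array's 75th percentile in DMEM and far above it under AEPS. Flrt3, a membrane protein of cell adhesion, read 33.9 in DMEM and 5157 under AEPS, 149-fold higher. Saa3, an acute phase serum amyloid protein, read 62 in DMEM and 4975 under AEPS, 78.5-fold higher. Acod1, which makes the antimicrobial metabolite itaconate, read 3987 in DMEM and 219853 under AEPS, 54-fold higher. Tnfrsf1b, a receptor for tumour necrosis factor, read 59.4 in DMEM and 3020 under AEPS, 49.8-fold higher. Cd40, a costimulatory receptor, read 134 in DMEM and 4995 under AEPS, 36.5-fold higher. The other members of the 12 largest increases were the interferon-stimulated genes Ifit1, Isg15, Rsad2 and Mx2, described with their group.

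Among genes that were not well above background in DMEM, Il1a, interleukin 1 alpha, read 3.5, not well above background, in DMEM and 9900 under AEPS, at least 579-fold higher. Col5a3, a collagen chain, read 4, not well above background, in DMEM and 6582 under AEPS, at least 385-fold higher. Csf3, the growth factor of granulocytes, read 3.6, not well above background, in DMEM and 4632 under AEPS, at least 271-fold higher. Hdc, the enzyme that makes histamine, read 6.7, not well above background, in DMEM and 2546 under AEPS, at least 149-fold higher. Their DMEM intensities lay below the lowest value well above background, so that only a bound on the fold is given. It belongs to the scanner's processed signal and is not a lower limit under every processing. With normexp background the bound of Il1a was 7.15 log2 beside 9.18, and that of Csf3 6.02 beside 8.08. Smaller bounds were those of Cish, an inhibitor of cytokine signalling (3.8, below background, to 1365, at least 79.9-fold higher), Ptger2, a prostaglandin E2 receptor (9.1, below background, to 774, at least 45.3-fold higher), the chemokine Ccl24 (17.2, below background, to 733, at least 41.8-fold higher) and Csf1, the growth factor of macrophages (16.1, below background, to 649, at least 38-fold higher).

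The largest decreases were smaller. Angptl2, a secreted angiopoietin-like protein, read 415 in DMEM and 40.6 under AEPS, 10.4-fold lower. Klhl6, a ubiquitin ligase adaptor of blood cells, read 1053 in DMEM and 122 under AEPS, 8.78-fold lower. Arhgap27, which switches off small GTPases, read 166 in DMEM and 20.1 under AEPS, 8.44-fold lower, where another of its probes was at -0.98 log2. Lrrc17, a secreted leucine-rich repeat protein, read 216 in DMEM and 28.1 under AEPS, 7.83-fold lower. Gsdme, a gasdermin that forms membrane pores, read 717 in DMEM and 102 under AEPS, 7.2-fold lower. St6gal1, which adds sialic acid to glycoproteins, read 178 in DMEM and 26.1 under AEPS, 6.97-fold lower. All of these kept a signal well above background under AEPS, and Arhgap27, Lrrc17 and St6gal1 ended within 2-fold of its lower edge. The next were Zbtb8a (178 to 29.2, 6.24-fold lower), E2f2, a transcription factor of the cell cycle (8764 to 1487, 6.02-fold lower), Tmem51 (3025 to 524, 5.9-fold lower), Cbx2, a Polycomb subunit (388 to 67.7, 5.85-fold lower), and Pxk (354 to 62.3, 5.79-fold lower). Mxd3, a partner of the Myc network (128 to 23.2, 5.62-fold lower), completes the 12. Zbtb8a and Mxd3 also ended within 2-fold of the lowest intensity well above background under AEPS. With normexp background they were at -1.39 and -1.23 log2, beside -2.64 and -2.49. The largest downward bound was that of Bhmt2, a methyltransferase of methionine metabolism (165 to 3.2, below background, at least 10.5-fold lower). The other 7 of the 8 largest downward bounds started from 86.6 to 163 in DMEM.

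**Figure D2:**
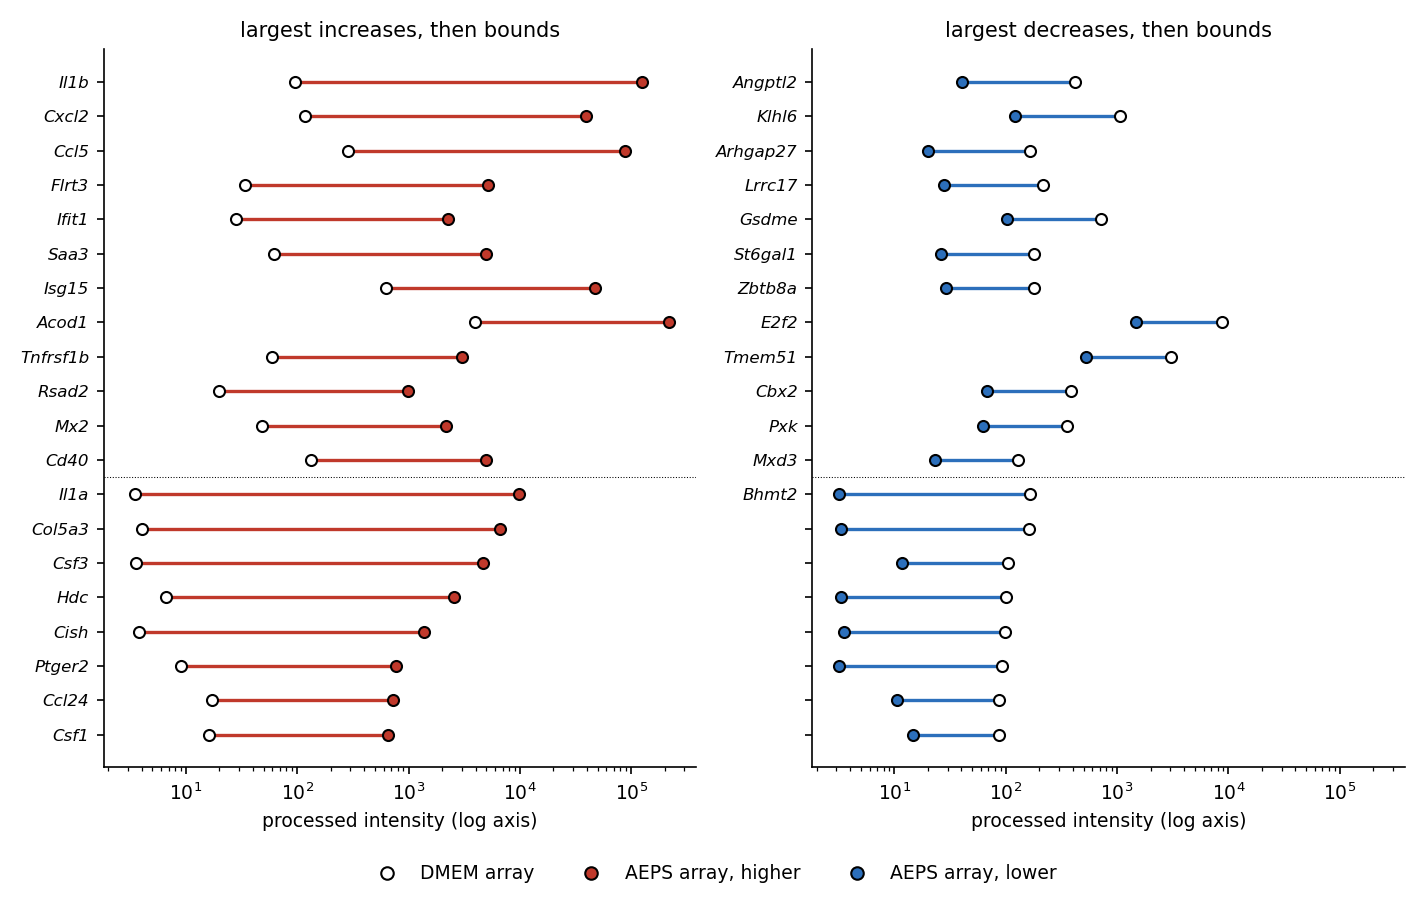
Processed intensity on the DMEM array (open circles) and the AEPS array (filled circles) labelled knockdown, on a log axis, for the 12 largest increases and decreases and, under the dotted line, the 8 largest bounds each way; genes named in the text are labelled. The increases span up to 1278-fold (Il1b) and the decreases up to 10.4-fold (Angptl2); for the bounds the dim end was not well above background, so the drawn distance is not a measured fold.

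The genes were also read in 41 lists by role, which hold 944 detected genes, 264 of them called higher and 53 lower. Over all detected genes 4.64% were called higher and 3.49% lower, and the counts of each list stand beside these shares. Members and lists were chosen with earlier results of these data known. A list count above these shares is therefore partly set by that choice and is a description only. A list with 1 call among 28 members lies near them. The list medians ran from 3.79 on the log2 scale for chemokines to -1.02 for genes of S phase, beside 0.06 over all detected genes.

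**Figure D3:**
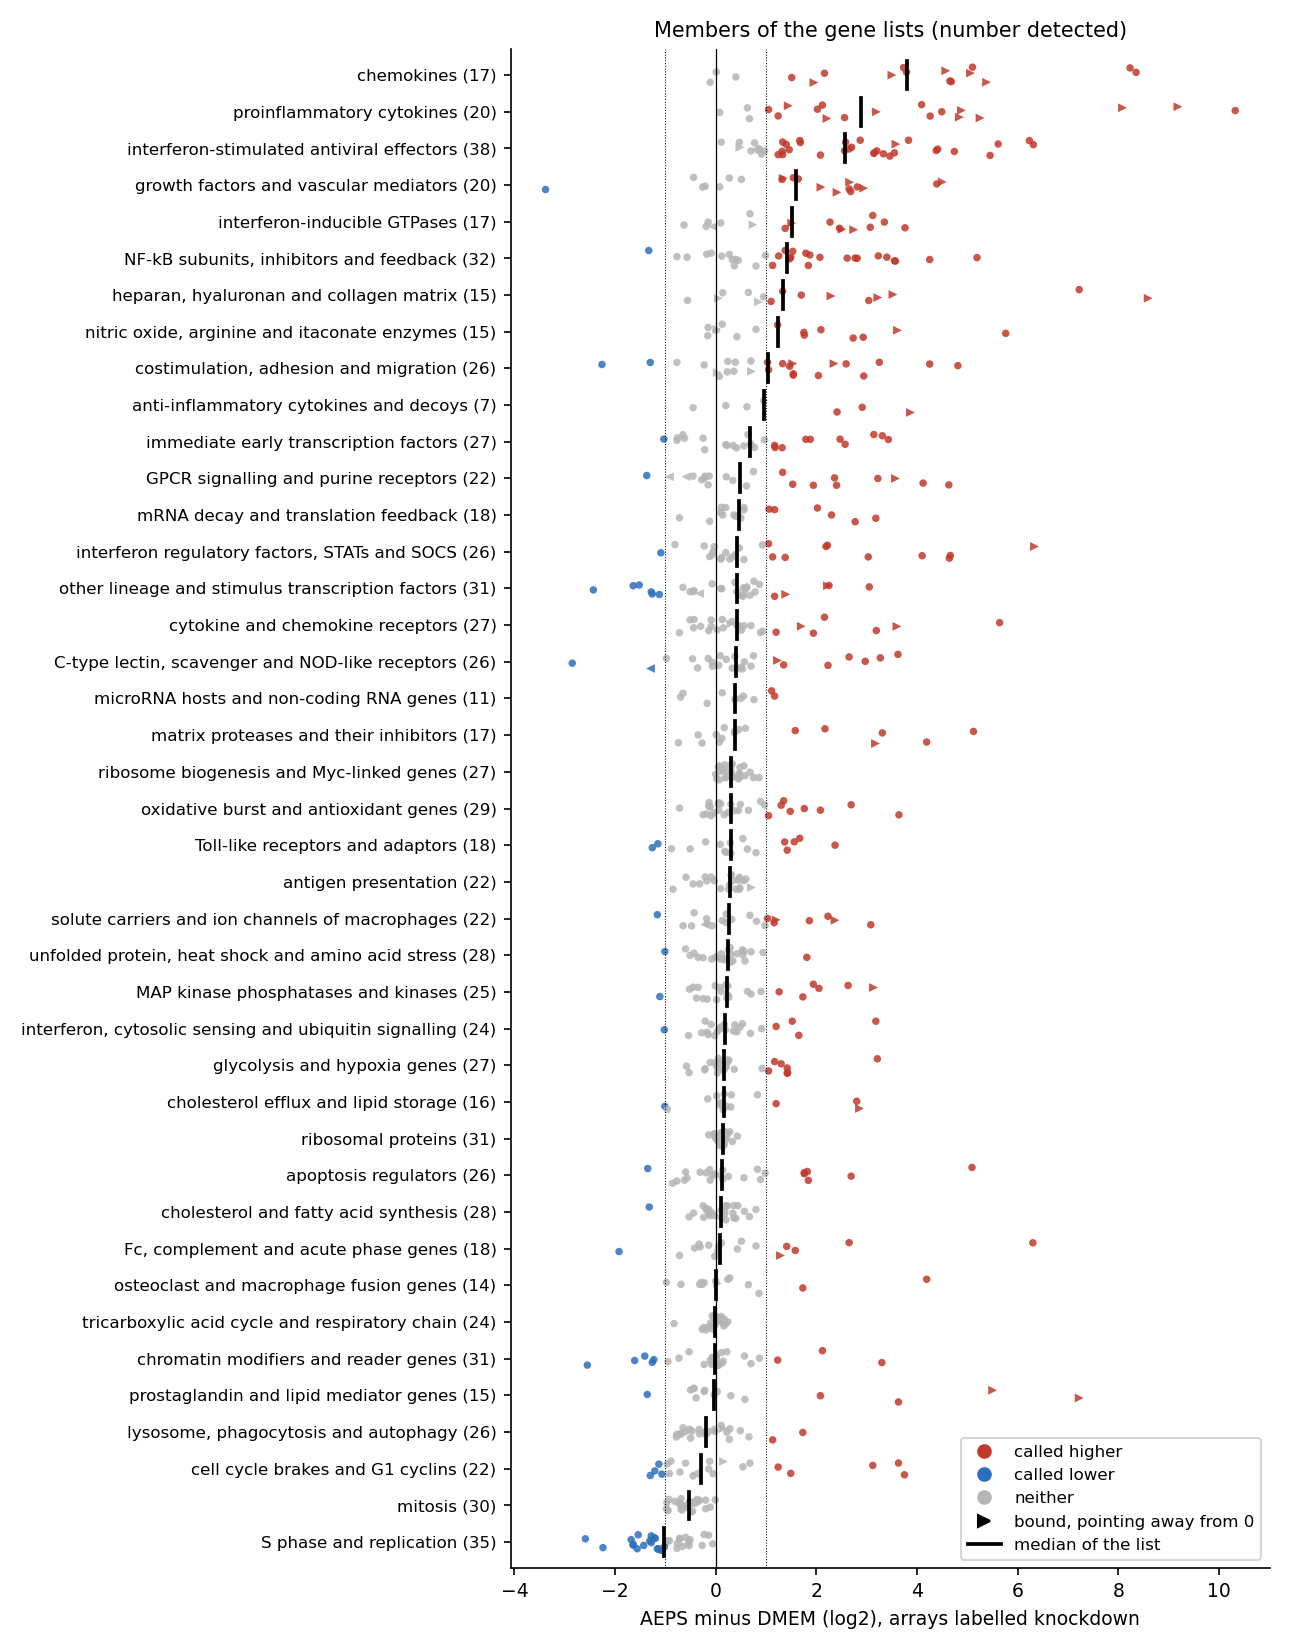
AEPS minus DMEM on the log2 scale, arrays labelled knockdown, for each detected member of the 41 gene lists, ordered by list median (black bar). Chemokines, proinflammatory cytokines and interferon-stimulated effectors lie farthest to the right (medians 3.79, 2.88 and 2.57), and S phase and mitosis are the only lists with no member above 0 in the setting drawn. Over genes measured on both arrays those 3 medians were 3.76, 2.07 and 2.57, so the order of the last 2 depends on the bounds.

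Of 20 detected proinflammatory cytokines 17 were called higher and 0 lower, with a median of 2.88. Of the 20, 8 were well above background only under AEPS and entered as bounds. Over the 12 measured on both arrays the median was 2.07. Tnf, tumour necrosis factor, read 4867 in DMEM and 84768 under AEPS, 17.1-fold higher. Il6, which drives the acute phase response, read 3.6, not well above background, in DMEM and 491 under AEPS, at least 28.7-fold higher, and Ifnb1, interferon beta, read 4.3, not well above background, in DMEM and 505 under AEPS, at least 29.5-fold higher. Tnf was already expressed in DMEM, while Il6 and Ifnb1 came from below background. Lif, a cytokine of the interleukin 6 family, read 32.7 in DMEM and 638 under AEPS, 19.1-fold higher. Tnfsf15, a member of the tumour necrosis factor family, read 20.5 in DMEM and 470 under AEPS, 22.5-fold higher. Csf2, the growth factor of granulocytes and macrophages, read 3.7, not well above background, in DMEM and 157 under AEPS, at least 9.14-fold higher. Il33, an alarm cytokine, read 3.4, not well above background, in DMEM and 78.9 under AEPS, at least 4.62-fold higher. Il23a (3.7, below background, to 46.3, at least 2.71-fold higher), Il27 (288 to 693, 2.36-fold higher) and Ebi3, the partner of Il27 (6082 to 12838, 2.07-fold higher), had smaller differences. Osm (94 to 153, 1.59-fold higher) and Il18 (2138 to 3387, 1.55-fold higher) were under 2-fold.

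The list of anti-inflammatory cytokines and decoys, which also holds Tslp, had 3 of 7 called higher and 0 lower (median 0.95). Il10, the main anti-inflammatory cytokine, read 35.7 in DMEM and 193 under AEPS, 5.32-fold higher. Il1rn, which blocks the interleukin 1 receptor, read 183 in DMEM and 1403 under AEPS, 7.52-fold higher. Tslp, a cytokine that favours type 2 immunity, read 4.2, not well above background, in DMEM and 248 under AEPS, at least 14.5-fold higher. Tgfb1, transforming growth factor beta, was under 2-fold (2467 to 4869, 1.93-fold higher).

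Of 17 chemokines 14 were called higher and 0 lower, with a median of 3.79. Ccl3 and Ccl4, which attract monocytes and T cells, were both called higher. Ccl3 read 12619 in DMEM and 178519 under AEPS, 13.9-fold higher. Ccl4 read 4636 in DMEM and 162622 under AEPS, 34.4-fold higher. Ccl2, which draws monocytes, read 4478 in DMEM and 60819 under AEPS, 13.3-fold higher. Ccl7, a close relative of Ccl2, read 121 in DMEM and 3185 under AEPS, 25.7-fold higher. Cxcl10, an interferon-induced ligand of Cxcr3, read 786 in DMEM and 20182 under AEPS, 25.1-fold higher. Cxcl3 (4, below background, to 570, at least 33.3-fold higher), Ccl22 (3.5, below background, to 406, at least 23.7-fold higher) and Ccl17 (11.3, below background, to 194, at least 11.3-fold higher) came from below background. Cxcl9, another Cxcr3 ligand, read 26.4 in DMEM and 35.5 under AEPS, 1.32-fold higher. Cxcl9, Cxcl11 and Cxcl14 were the 3 chemokines under 2-fold.

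Receptors for these mediators were mostly under 2-fold, with 7 of 27 called higher and 0 lower (median 0.42). Besides Tnfrsf1b they were the formyl peptide receptors Fpr1 (8.9, below background, to 207, at least 12.1-fold higher) and Fpr2 (3.7, below background, to 55.6, at least 3.25-fold higher), the chemokine-binding receptor Ccrl2 (43.3 to 404, 9.13-fold higher), the interleukin 10 receptor chain Il10ra (319 to 1460, 4.48-fold higher), the complement C5a receptor C5ar1 (162 to 632, 3.83-fold higher) and Il1rap (90.2 to 212, 2.3-fold higher). Il6ra, the interleukin 6 receptor, read 17430 in DMEM and 10786 under AEPS, 1.65-fold lower.

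In the NF-kB list 19 of 32 members were called higher and 1 lower, with a median of 1.42. The inhibitors that NF-kB itself induces stood among them. Tnfaip3, also called A20, which removes ubiquitin from the pathway, read 405 in DMEM and 7885 under AEPS, 19.1-fold higher. Nfkbia, the inhibitor IkB alpha, read 24012 in DMEM and 149551 under AEPS, 6.1-fold higher. Nfkbie, another IkB protein, read 1658 in DMEM and 11515 under AEPS, 6.8-fold higher. Nfkbiz, a nuclear IkB protein, read 91 in DMEM and 650 under AEPS, 7.0-fold higher. Of the subunits, Nfkb1 (1084 to 3959, 3.58-fold higher), Nfkb2 (1607 to 6006, 3.66-fold higher), Rel (33.3 to 143, 4.21-fold higher) and Relb (2088 to 6165, 2.89-fold higher) were called higher. The adaptors Traf1 (3684 to 35266, 9.37-fold higher) and Malt1 (1199 to 12890, 10.5-fold higher) and the kinase Ikbke (62.5 to 759, 11.9-fold higher) were higher as well.

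Promoter windows of 4 genes of the cytokine and NF-kB response are shown because they hold a match to the 9-letter NF-kB-like motif GGANTTTCC, where N is any base. The sequences are RefSeq windows of GRCm38.p6, read 5′ to 3′ up to the base before the start of the gene, and capitals mark motif matches on either strand. They lie at chr5:90903769-90903898 (plus strand) for Cxcl2, chr12:55492648-55492847 (minus) for Nfkbia, chr14:103046882-103047011 (plus) for Acod1 and chr5:92348890-92349139 (minus) for Cxcl10. The windows of Acod1 and Cxcl10 also hold the interferon-type motif described below, marked the same way.
Cxcl2: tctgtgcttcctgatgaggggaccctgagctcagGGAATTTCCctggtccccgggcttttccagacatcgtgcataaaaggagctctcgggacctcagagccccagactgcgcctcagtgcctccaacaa
Nfkbia: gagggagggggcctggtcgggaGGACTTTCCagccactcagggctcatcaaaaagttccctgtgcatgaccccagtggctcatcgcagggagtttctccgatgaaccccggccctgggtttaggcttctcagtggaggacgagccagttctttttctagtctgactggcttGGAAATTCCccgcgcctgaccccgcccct
Acod1: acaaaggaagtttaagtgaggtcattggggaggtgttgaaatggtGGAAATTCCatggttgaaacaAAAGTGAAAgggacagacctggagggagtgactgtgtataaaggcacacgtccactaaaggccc
Cxcl10: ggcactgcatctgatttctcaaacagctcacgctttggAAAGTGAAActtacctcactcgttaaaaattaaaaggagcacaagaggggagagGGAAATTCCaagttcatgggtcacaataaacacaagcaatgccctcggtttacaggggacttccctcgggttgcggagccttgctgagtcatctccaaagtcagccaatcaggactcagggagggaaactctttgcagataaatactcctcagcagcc
In Cxcl2 the match lies 96 to 88 bases before the start. Nfkbia holds 2 matches, the nearer at 29 to 21 bases. In Acod1 the NF-kB-like match (85 to 77) and the interferon-type match (64 to 56) lie next to each other, and in Cxcl10 they lie farther up, at 158 to 150 and 212 to 204. A match is a description of the letters and does not show that a factor binds.

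Proteins that dampen the response after transcription had 6 of 18 called higher and 0 lower (median 0.47). Zc3h12a, a nuclease that cuts cytokine RNA, read 239 in DMEM and 2204 under AEPS, 9.04-fold higher. Zfp36, which binds AU-rich elements and promotes their decay, read 155 in DMEM and 778 under AEPS, 4.92-fold higher. Zc3h12c (536 to 3741, 6.84-fold higher) and Btg2 (89.5 to 370, 4.05-fold higher) were higher too, and Zfp36l2, a relative of Zfp36, read 12195 in DMEM and 7574 under AEPS, 1.64-fold lower.

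Among MAP kinases and their phosphatases 6 of 25 were called higher and 1 lower (median 0.22). They were mainly phosphatases, with Dusp2 (5223 to 32993, 6.19-fold higher), Dusp16 (504 to 2128, 4.14-fold higher), Dusp4 (2820 to 6910, 2.4-fold higher) and Dusp5 (14, below background, to 150, at least 8.77-fold higher). Dusp14, a phosphatase of the same family, was lower (141 to 66.7, 2.16-fold lower). Rgs16, which shortens G protein signals, read 10224 in DMEM and 40185 under AEPS, 3.85-fold higher.

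Of 27 immediate early transcription factors 10 were called higher and 1 lower (median 0.69). Maff (126 to 1379, 10.8-fold higher), Ier3 (789 to 7976, 9.9-fold higher) and Cebpd (7851 to 70536, 8.8-fold higher) led them. Myc, a driver of growth genes, read 1553 in DMEM and 9417 under AEPS, 5.94-fold higher. Atf3, which restrains cytokine genes, read 478 in DMEM and 1799 under AEPS, 3.68-fold higher. The classic members Fos (4037 to 6081, 1.48-fold higher) and Jun (3261 to 2159, 1.54-fold lower) were under 2-fold at 4 h, and Fosl2 was called lower (6317 to 3156, 2.04-fold lower), where its other probe was at -0.64 log2.

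Lineage and stimulus factors were split, with 5 of 31 called higher and 6 lower. Cebpa (673 to 316, 2.17-fold lower), the lysosomal regulator Tfeb (402 to 143, 2.87-fold lower) and the inhibitors of differentiation Id2 (5110 to 2149, 2.43-fold lower) and Id3 (5477 to 2335, 2.39-fold lower) were lower. Stat5a (898 to 4356, 4.75-fold higher) and Hivep3 (45.3 to 383, 8.28-fold higher) were higher. Spi1, the master factor of the macrophage lineage, read 1312 in DMEM and 1962 under AEPS, 1.46-fold higher.

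Interferon regulatory factors, STATs and SOCS proteins had 10 of 26 members called higher and 1 lower (median 0.43). Socs3, an inhibitor of cytokine receptors, read 2047 in DMEM and 52874 under AEPS, 25.3-fold higher. Socs1, which inhibits interferon receptors, read 47.4 in DMEM and 395 under AEPS, 8.15-fold higher. Irf4 (43.5 to 1106, 24.9-fold higher) and Irf7, which amplifies the interferon response (72.5 to 339, 4.58-fold higher), were higher, while Irf1 (1508 to 2270, 1.47-fold higher) was under 2-fold. The interferon signalling factors Stat2 (841 to 1784, 2.08-fold higher) and Irf9 (1097 to 5215, 4.66-fold higher) were called higher, and so was Usp18, which removes the Isg15 tag (256 to 4479, 17.2-fold higher). Jak3 was the lower member (166 to 79.5, 2.13-fold lower), with another probe at -0.45 log2.

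Of 38 detected interferon-stimulated antiviral effectors 29 were called higher and 0 lower, with a median of 2.57, and all 38 had a difference above 0, also with normexp background, quantile normalization and both scalings to detected probes. Ifit1, which binds foreign RNA, read 28 in DMEM and 2263 under AEPS, 79.1-fold higher. Isg15, a ubiquitin-like tag, read 622 in DMEM and 47716 under AEPS, 75.1-fold higher. Rsad2, also called viperin, read 19.7 in DMEM and 984 under AEPS, 48.8-fold higher. Mx2, an antiviral GTPase, read 48.5 in DMEM and 2168 under AEPS, 43.8-fold higher. Ifih1, the RNA sensor MDA5, read 145 in DMEM and 3955 under AEPS, 26.8-fold higher. Oasl1, of the oligoadenylate synthetase family, read 4666 in DMEM and 98920 under AEPS, 20.8-fold higher. Members close to the threshold or under it were Oas3 (224 to 539, 2.36-fold higher), Trim25 (27650 to 55480, 1.97-fold higher), Bst2, which tethers virions (3081 to 5382, 1.71-fold higher), and Ifi47 (247 to 411, 1.63-fold higher). Near-identical relatives, such as Ifit3 and Ifit3b, Oas1a and Oas1g, the Gbp, Ifi200, Saa and Bcl2a1 families, may share signal on 60-base probes, so their values are not independent.

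The windows of Ifit1 (chr19:34640759-34640888, plus strand), Isg15 (chr4:156200819-156200948, minus) and Rsad2 (chr12:26456453-26456582, minus) are shown for their matches to the interferon response element-like motif TTTCNNTTT, again on either strand and in GRCm38.p6.
Ifit1: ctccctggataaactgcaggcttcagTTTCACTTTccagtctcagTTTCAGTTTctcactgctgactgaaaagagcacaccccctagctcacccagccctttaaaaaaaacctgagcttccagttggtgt
Isg15: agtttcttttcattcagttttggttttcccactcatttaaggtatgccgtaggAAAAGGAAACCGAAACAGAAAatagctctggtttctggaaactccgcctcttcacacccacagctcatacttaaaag
Rsad2: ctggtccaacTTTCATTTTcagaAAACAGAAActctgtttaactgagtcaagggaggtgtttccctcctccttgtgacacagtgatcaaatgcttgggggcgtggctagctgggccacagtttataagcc
Ifit1 and Rsad2 hold 2 matches each, Ifit1 at 104 to 96 and 85 to 77 bases before the start. Isg15 holds 3 overlapping matches in 1 run from 77 to 57 bases before the start. Over the list, 21 of 30 members with a window held the motif, 70.0%, beside 12.1% of all 27025 genes with a window.

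Interferon-inducible GTPases and Ifi200 proteins had 10 of 17 called higher and 0 lower (median 1.51). Irgm1, which acts on vacuoles with pathogens, read 556 in DMEM and 4769 under AEPS, 8.39-fold higher. Gbp3 (45.7 to 632, 13.5-fold higher), Igtp (226 to 1999, 8.67-fold higher) and Gbp5 (19.2 to 108, 5.52-fold higher) were higher. Iigp1 (274 to 252, 1.11-fold lower) and Tgtp2 (32.2 to 21.3, 1.54-fold lower) were under 2-fold and had differences below 0. In the list of cytosolic sensing and ubiquitin signalling 4 of 24 were called higher and 1 lower, with Peli1, a ubiquitin ligase (2194 to 20299, 9.06-fold higher), and Trex1, a DNA nuclease (7917 to 25368, 3.14-fold higher), leading.

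Toll-like receptors and their adaptors had 5 of 18 called higher and 2 lower (median 0.30). Tlr2, which senses lipoproteins, read 18338 in DMEM and 55178 under AEPS, 2.95-fold higher. Tlr1, its partner, read 225 in DMEM and 1183 under AEPS, 5.15-fold higher. Cd14, the co-receptor of several Toll-like receptors, read 47866 in DMEM and 130328 under AEPS, 2.67-fold higher. Tlr4, the receptor for bacterial lipopolysaccharide, read 1616 in DMEM and 745 under AEPS, 2.21-fold lower. Tlr13, a sensor of bacterial RNA, read 2635 in DMEM and 1122 under AEPS, 2.4-fold lower. Tlr1 and Tlr2 were higher and Tlr4 and Tlr13 lower on the same pair of arrays. Irak3, a brake on the pathway, read 175 in DMEM and 464 under AEPS, 2.59-fold higher.

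Among lectin, scavenger and NOD-like receptors 7 of 26 were called higher and 2 lower (median 0.41). Nod2, a sensor of bacterial cell wall, read 37.6 in DMEM and 473 under AEPS, 12.3-fold higher. Nlrp3, the sensor of an inflammasome, read 127 in DMEM and 1010 under AEPS, 7.81-fold higher. Clec4e, which binds mycobacterial glycolipid, read 7581 in DMEM and 48494 under AEPS, 6.27-fold higher. Olr1 (389 to 3824, 9.63-fold higher), Casp4 (1901 to 9129, 4.7-fold higher) and Clec7a, the beta-glucan receptor dectin 1 (3716 to 9669, 2.55-fold higher), were higher. Nod1, a relative of Nod2, read 39.1 in DMEM and 14.8, not well above background, under AEPS, at least 2.48-fold lower.

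Of 22 detected genes of antigen presentation 0 were called in either direction (median 0.29), and the largest differences each way were those of H2-DMb1 (207 to 117, 1.81-fold lower) and the bound of H2-Eb1 (10.8, below background, to 27.8, at least 1.63-fold higher). Costimulation, adhesion and migration genes had 14 of 26 called higher and 2 lower (median 1.04). Cd274, the checkpoint ligand PD-L1, read 56.5 in DMEM and 1096 under AEPS, 19-fold higher. Icosl, a ligand for activated T cells, read 120 in DMEM and 3431 under AEPS, 28.1-fold higher. Cd83, a marker of activated antigen-presenting cells, read 4704 in DMEM and 45763 under AEPS, 9.53-fold higher. Icam1, an adhesion molecule, read 568 in DMEM and 1681 under AEPS, 2.9-fold higher. Sirpa, which receives the signal not to engulf, read 13637 in DMEM and 5662 under AEPS, 2.46-fold lower, and Cytip, a brake on integrin adhesion, read 235 in DMEM and 50.3 under AEPS, 4.78-fold lower.

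Enzymes of nitric oxide, arginine and itaconate metabolism had 8 of 15 called higher and 0 lower (median 1.23). Nos2, inducible nitric oxide synthase, read 426 in DMEM and 2891 under AEPS, 6.65-fold higher. Gch1, which makes its cofactor, read 3145 in DMEM and 13633 under AEPS, 4.25-fold higher. Ass1, which recycles citrulline to arginine, read 269 in DMEM and 924 under AEPS, 3.36-fold higher. Odc1, the first enzyme of polyamine synthesis, read 31158 in DMEM and 107803 under AEPS, 3.39-fold higher. Ch25h, which makes an antiviral oxysterol, read 3.8, not well above background, in DMEM and 208 under AEPS, at least 12.2-fold higher.

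Prostaglandin and lipid mediator genes had 4 of 15 called higher and 1 lower. Ptgs2, cyclooxygenase 2, read 2054 in DMEM and 26011 under AEPS, 12.4-fold higher, while Ptgs1, the constitutive form, read 842 in DMEM and 1060 under AEPS, 1.23-fold higher. Ptges, the prostaglandin E synthase, read 18141 in DMEM and 18112 under AEPS, 1.02-fold lower. That value depends on the processing, and among the alternatives it ran up to 1.39 log2. With the mean of a gene's probes 5 members of this list were called higher. Hpgds, which makes prostaglandin D2, read 192 in DMEM and 76.8 under AEPS, 2.56-fold lower. The receptors Ptger2 and Ptgir (121 to 522, 4.24-fold higher) were higher.

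Energy metabolism was uneven. Glycolysis and hypoxia genes had 7 of 27 called higher and 0 lower (median 0.17), with the glucose transporter Slc2a1 (14221 to 39181, 2.7-fold higher), the hexokinase Hk2 (2236 to 6113, 2.68-fold higher) and Ndrg1 (1255 to 11839, 9.24-fold higher) among them. Of 24 genes of the tricarboxylic acid cycle and the respiratory chain 0 were called (median -0.01). Of 28 genes of cholesterol and fatty acid synthesis 0 were called higher and 1 lower, Dhcr7, the last step to cholesterol (569 to 233, 2.5-fold lower). The cholesterol exporters went opposite ways, with Abca1 (208 to 1475, 6.96-fold higher) and Abcg1 (4483 to 2277, 2.01-fold lower).

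Oxidative burst and antioxidant genes had 8 of 29 called higher and 0 lower (median 0.30). Slc7a11, which imports cystine for glutathione, read 109 in DMEM and 1388 under AEPS, 12.5-fold higher. Sod2, the mitochondrial superoxide dismutase, read 36107 in DMEM and 94296 under AEPS, 2.56-fold higher. Mt2, a metal-binding protein, read 43037 in DMEM and 186419 under AEPS, 4.24-fold higher. Cybb, a subunit of the oxidase of the burst, read 694 in DMEM and 2401 under AEPS, 3.39-fold higher. Lcn2, which withholds iron from bacteria, read 86.3 in DMEM and 569 under AEPS, 6.45-fold higher.

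Growth factors and vascular mediators had 13 of 20 called higher and 1 lower, Angptl2 (median 1.59). Hbegf, a ligand of the epidermal growth factor receptor, read 49.6 in DMEM and 1065 under AEPS, 21-fold higher. Edn1, endothelin 1, read 3.6, not well above background, in DMEM and 386 under AEPS, at least 22.6-fold higher. F3, tissue factor, which starts clotting, read 9.6, not well above background, in DMEM and 131 under AEPS, at least 7.67-fold higher. Pdgfb (13550 to 86593, 6.26-fold higher), Vegfa (654 to 2078, 3.11-fold higher) and Plaur (9997 to 71451, 7.0-fold higher) were higher from levels well above background.

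Matrix proteases and their inhibitors had 6 of 17 called higher and 0 lower, among them Timp1, a protease inhibitor (322 to 11443, 34.8-fold higher), Mmp9 (20.7 to 384, 18.3-fold higher), Mmp13 (3.4, below background, to 153, at least 8.93-fold higher) and Slpi (135 to 1365, 9.93-fold higher). In the list of heparan, hyaluronan and collagen matrix 9 of 15 detected members were called higher and 0 lower, and 10 further members were on the array but below background on both. Tnc, tenascin C, read 4.8, not well above background, in DMEM and 196 under AEPS, at least 11.5-fold higher. Sdc4, a heparan sulfate proteoglycan, read 906 in DMEM and 7601 under AEPS, 8.22-fold higher. Has1, a hyaluronan synthase, read 3.5, not well above background, in DMEM and 83.7 under AEPS, at least 4.9-fold higher.

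Receptors coupled to G proteins had 9 of 22 called higher and 1 lower. Hcar2, the niacin receptor, read 66.3 in DMEM and 1675 under AEPS, 24.7-fold higher. Adora2a (14.4, below background, to 202, at least 11.8-fold higher) and Adora2b (1070 to 5777, 5.29-fold higher), receptors for adenosine, were higher, and so was Gpr84 (8277 to 78970, 9.34-fold higher). Pde4b, which breaks down cyclic AMP, read 93.9 in DMEM and 1672 under AEPS, 17.4-fold higher. Gpr183, an oxysterol receptor that guides migration, read 2475 in DMEM and 977 under AEPS, 2.59-fold lower. Among solute carriers and channels 7 of 22 were called higher and 1 lower, with Slc31a2 (446 to 3855, 8.46-fold higher) and Slc15a3 (377 to 1813, 4.71-fold higher) leading and the potassium channel subunit Kcnab2 lower (64.1 to 29.2, 2.24-fold lower).

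Genes of DNA replication were the largest group on the lower side. Of 35 detected genes of S phase 18 were called lower and 0 higher, with a median of -1.02, and all 35 had a difference below 0, also with normexp, quantile and both scalings to detected probes. E2f2 led the list, and the related factors E2f1 (2524 to 1192, 2.16-fold lower), E2f7 (1249 to 408, 3.12-fold lower) and E2f8 (2953 to 1026, 2.94-fold lower) were called lower too. E2f7 has another probe at 0.22 log2. Cdc6, which loads the replicative helicase, read 963 in DMEM and 208 under AEPS, 4.73-fold lower. Cdt1, its partner, read 25784 in DMEM and 11481 under AEPS, 2.29-fold lower. Mcm6, a subunit of that helicase, read 64949 in DMEM and 30031 under AEPS, 2.21-fold lower, and Mcm2 (6532 to 2976, 2.24-fold lower) was lower, whereas Mcm3 (26357 to 17083, 1.58-fold lower), Mcm4 (20768 to 13990, 1.52-fold lower), Mcm5 (15374 to 8089, 1.94-fold lower) and Mcm7 (21876 to 15393, 1.45-fold lower) were under 2-fold. Ccne1, cyclin E1, read 7714 in DMEM and 2459 under AEPS, 3.2-fold lower. Tk1, thymidine kinase, read 12248 in DMEM and 4024 under AEPS, 3.11-fold lower. Dnmt1, the maintenance DNA methyltransferase, read 3034 in DMEM and 1249 under AEPS, 2.48-fold lower, and its partner Uhrf1 was also lower (19352 to 8152, 2.42-fold lower).

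The windows of Mcm6 (chr1:128359706-128359835, minus strand) and Cdc6 (chr11:98908001-98908150, plus strand) are shown for the E2F-like motifs TTTGGCGC or TTTCCCGC and the NF-Y motif CCAAT, in GRCm38.p6.
Mcm6: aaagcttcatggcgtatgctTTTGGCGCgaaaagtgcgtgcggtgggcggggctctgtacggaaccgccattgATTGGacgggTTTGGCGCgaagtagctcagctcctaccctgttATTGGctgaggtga
Cdc6: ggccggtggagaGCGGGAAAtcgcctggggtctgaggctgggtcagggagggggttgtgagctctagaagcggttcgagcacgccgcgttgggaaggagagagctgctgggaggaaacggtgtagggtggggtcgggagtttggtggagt
Mcm6 holds 2 E2F-like matches, at 110 to 103 and 47 to 40 bases before the start, and 2 NF-Y matches on the other strand, written as ATTGG. Cdc6 holds 1 E2F-like match. Of 30 S phase genes with a window 12 held the E2F-like motif, 40.0%, beside 1.8% of all genes.

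Mitosis genes lay below 0 without reaching 2-fold. Of 30 detected genes 0 were called, the median was -0.53, and all 30 differences were below 0, or 29 of 30 with normexp and with the median of detected probes. Foxm1, which drives mitotic genes, read 3004 in DMEM and 1588 under AEPS, 1.93-fold lower. Mki67, the proliferation marker, read 37923 in DMEM and 24008 under AEPS, 1.61-fold lower. Ccnb1, cyclin B1, was among the least different (9113 to 8126, 1.15-fold lower). With the 75th percentile taken over probes detected on both arrays 5 mitosis genes were called lower, and with quantile normalization 3. Of 24 mitosis genes with a window 17 held the CHR-like letters TTTGAA, 70.8%, beside 20.2% of all genes, and 20 held CCAAT, 83.3%, beside 41.1%.

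**Figure D4:**
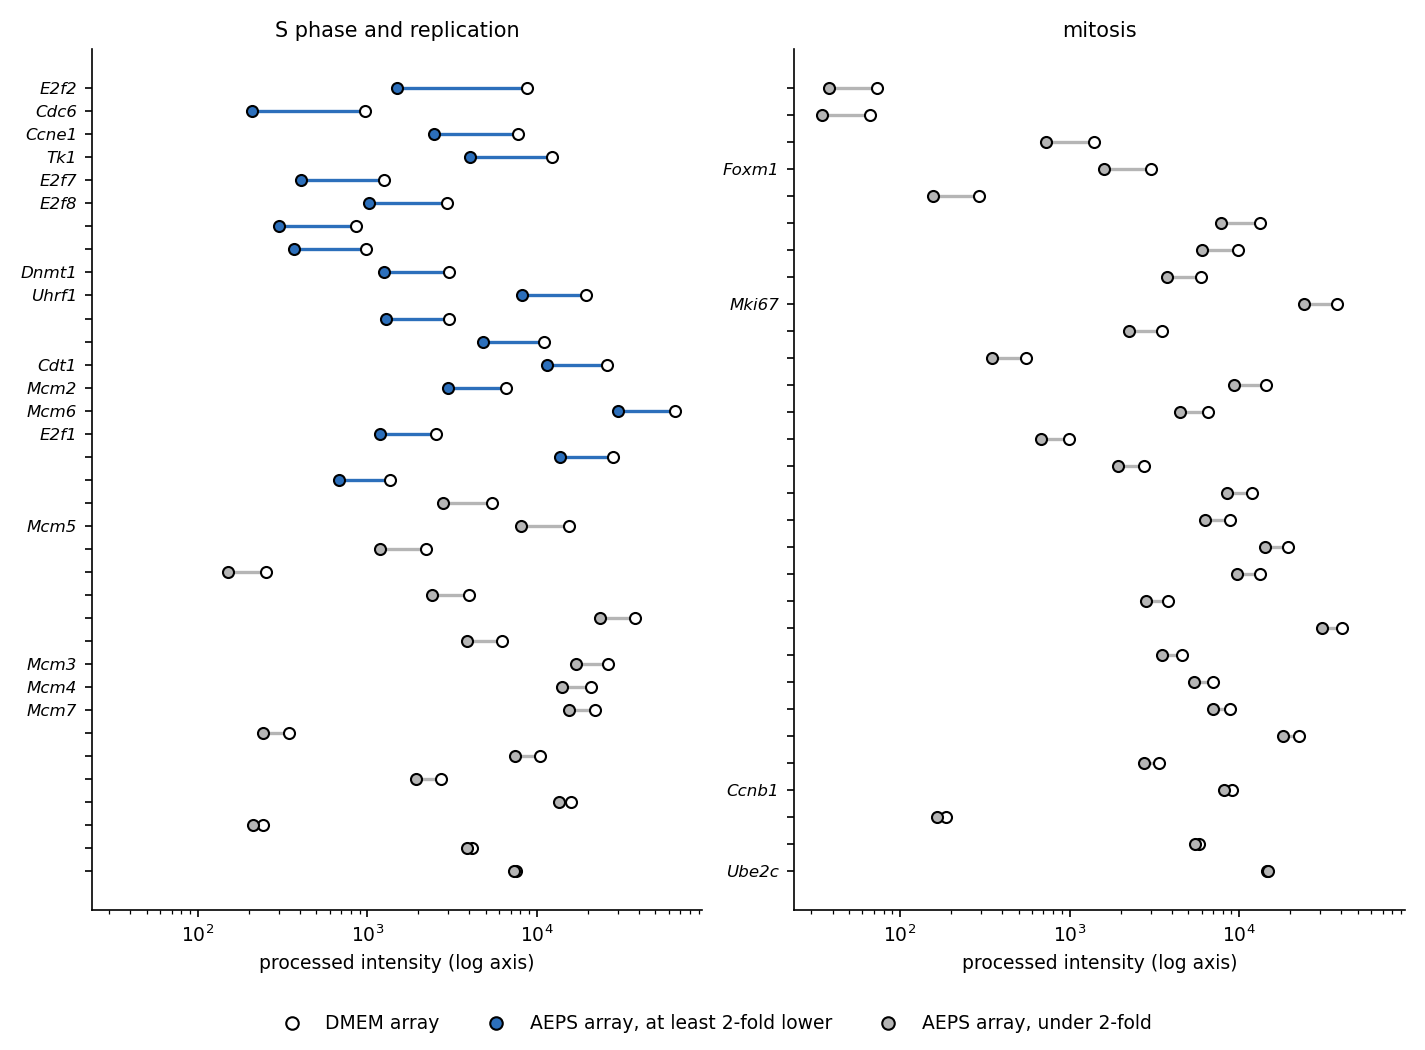
Processed intensity in DMEM (open circles) and under AEPS (filled circles), on a log axis, for the 35 detected S phase genes (left) and the 30 mitosis genes (right) on the arrays labelled knockdown, with labels for genes named in the text. Intensities are drawn unscaled, and the AEPS circle lies to the left of the DMEM circle for all of them but Ube2c (14497 to 14715), which is below 0 only after scaling; 18 S phase genes and 0 mitosis genes reach 2-fold.

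Brakes of the cell cycle and G1 cyclins were split, with 5 of 22 called higher and 4 lower (median -0.29). The stress genes Gadd45b (1015 to 13891, 13.4-fold higher) and Gadd45a (55.8 to 705, 12.4-fold higher) and the kinase Plk2 (32.3 to 287, 8.69-fold higher) were higher. Cdkn1a, the inhibitor p21, read 5474 in DMEM and 13193 under AEPS, 2.36-fold higher, but its 3 probes ran from -0.41 to 1.24 log2 and disagree. Ccnd1, cyclin D1, read 16488 in DMEM and 8889 under AEPS, 1.89-fold lower. The retinoblastoma relatives Rbl1 (2457 to 1082, 2.32-fold lower) and Rbl2 (200 to 82.7, 2.47-fold lower) and the inhibitor Cdkn2c (1138 to 530, 2.19-fold lower) were lower.

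Of 31 chromatin genes 3 were called higher and 5 lower. Kdm6b, a histone H3 lysine demethylase of inflammatory genes, read 844 in DMEM and 8505 under AEPS, 9.87-fold higher. Cbx2 and Cbx8 (250 to 83.6, 3.06-fold lower), readers of the Polycomb mark, were lower, as were the deacetylase Hdac5 (11425 to 4399, 2.65-fold lower) and the acetyltransferase Kat2b (184 to 78.6, 2.39-fold lower). Ezh2, the enzyme that writes that mark, read 3020 in DMEM and 1597 under AEPS, 1.93-fold lower.

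Apoptosis regulators had 6 of 26 called higher and 1 lower. Fas, a death receptor, read 295 in DMEM and 10274 under AEPS, 34.1-fold higher. The survival proteins Bcl2a1d (18745 to 123736, 6.46-fold higher), Bcl2l1 (12163 to 43701, 3.52-fold higher) and Cflar (472 to 1726, 3.59-fold higher) and the death-promoting Bcl2l11 (249 to 860, 3.39-fold higher) were higher on the same arrays, and Bmf, another death-promoting member, was lower (211 to 84.5, 2.55-fold lower).

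Of 31 ribosomal proteins 0 were called, and of 27 ribosome biogenesis and Myc-linked genes 0 were called and 0 were below 0 (median 0.31), or 5 below 0 with quantile and 4 with the 75th percentile of detected probes. Of 28 genes of protein folding and amino acid stress 1 was called higher, Herpud1 (4872 to 17459, 3.51-fold higher), and 1 lower, Atf6 (791 to 401, 2.01-fold lower). Lysosome, phagocytosis and autophagy genes had 2 of 26 called higher, the receptor Axl (853 to 2886, 3.31-fold higher) and the autophagy receptor Sqstm1 (3365 to 7528, 2.19-fold higher), and 0 lower (median -0.20). Osteoclast and fusion genes had 2 of 14 called higher, Mmp9 and Ocstamp (3891 to 13156, 3.31-fold higher), and 0 lower.

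Fc, complement and acute phase genes had 5 of 18 called higher and 1 lower. Besides Saa3 these were Saa1 (265 to 1693, 6.26-fold higher), complement C3 (244 to 658, 2.65-fold higher), complement factor B, Cfb (26 to 79.7, 3.0-fold higher), and Cp (15.1, below background, to 41.2, at least 2.41-fold higher). The other probe of C3 was at 0.57 log2. Fcgr1, the high-affinity receptor for immunoglobulin G, read 567 in DMEM and 153 under AEPS, 3.78-fold lower.

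Of 3240 detected array names that are genome windows with a strand, out of 4607 on the array, 102 were called higher and 63 lower. Both are smaller shares than the 4.64% and 3.49% over all detected genes. Among 11 detected microRNA hosts and named non-coding RNAs, Morrbid (174 to 401, 2.25-fold higher) and Mir22hg (313 to 689, 2.15-fold higher) were called higher and 0 lower. Malat1 (3447 to 2241, 1.57-fold lower) and Neat1 (18225 to 11426, 1.63-fold lower) were under 2-fold.

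Called genes and array names also stood side by side on the chromosomes. Among 22059 detected genes or array names with a position there were 12 runs of 4 or more neighbours called higher and 5 called lower. Neighbours were at most 200 kb apart. Windows and transcripts of the same locus count as separate names, so these are not counts of runs of separate genes. No expected number of runs was computed. The longest, of 16 names on chromosome 1 from 175653663 to 175893982 in the mm9 coordinates of the array, covers the Ifi200 family with Ifi207 (1698 to 7670, 4.43-fold higher), Ifi204 (2302 to 11305, 4.81-fold higher), Mndal (3074 to 8190, 2.61-fold higher), Ifi211 (at least 2.84-fold higher), Ifi203 (861 to 1944, 2.21-fold higher) and Ifi202b (830 to 3522, 4.16-fold higher). Several of its names are overlapping transcripts of the same genes and are not independent. Next came 9 names on chromosome 11 from 83339296 to 83566087, the chemokine genes Ccl5, Ccl9 (48676 to 221475, 4.46-fold higher), Ccl6 (74.9 to 378, 4.94-fold higher), Ccl3 and Ccl4 with E230016K23Rik and the antiprotease genes Wfdc17 (211 to 1328, 6.18-fold higher), Wfdc18 (3.5, below background, to 66.2, at least 3.87-fold higher) and Wfdc21 (3.6, below background, to 35.7, at least 2.06-fold higher). On chromosome 2 from 128137480 to 128250241, 6 names around Morrbid had a median of 1.26.

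A run of 5 non-coding windows on chromosome 16 from 84705907 to 84708797, which the files tie to no gene, had a median of 4.18, and its strongest window went from 127 to 3483, 26.8-fold higher. Its windows overlap on both strands. On the lower side, 5 names on chromosome 2 from 120459959 to 120544949 included Stard9 (1149 to 373, 3.15-fold lower) and Cdan1 (289 to 120, 2.45-fold lower). The other names are transcript identifiers with probes on the same strand as Stard9, so they may not be independent of it. Another probe of Cdan1 was at 0.08 log2.

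Distinct probes of a gene gave a measure of reliability that spots of 1 probe do not. For the 5260 genes measured by several probes, the range of the probes' differences had a median of 0.244 log2 units and a 90th percentile of 0.743. Of 539 genes with at least 1 probe past 2-fold, 197 had all probes past it in 1 direction, 36.5%. The probes of Clip4 were close together (2.35 to 2.42 log2 over 3 probes), as were those of Cflar (1.81 to 2.09), Odc1 (1.76 to 2.19 over 4 probes) and Ptprj (1.96 to 2.55 over 4 probes), named for that agreement after their values were seen. The probes differed most for Zfp975 (-0.05 to 2.56), Mical2 (-2.18 to 0.30), Ifi203 (1.15 to 3.12), Sp110 (-0.06 to 1.83), Foxp1 (-1.21 to 0.58), Bard1 (-1.67 to 0.02) and Hk1 (-1.60 to 0.07). One array name, a non-coding window, had probes past 2-fold in opposite directions. Called genes named above that also had a probe under 2-fold include Arhgap27 (-3.08 to -0.98), Cdan1 (-1.30 to 0.08), Rbl1 (-1.21 to -0.58), Uhrf1 (-1.28 to -0.99) and Il1rap (0.82 to 1.20).

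Some of the calls named above depend on the processing. With normexp background correction in place of the scanner's processed signal, under 2-fold were Stat2, Il23a, Il1rap, Fpr2, Cfb, Cp, Wfdc18, Wfdc21, Ifi211, E230016K23Rik, Morrbid, Mir22hg, Pdgfrb, Fap and S100a8 on the higher side. On the lower side these were Nod1, Jak3, Fosl2, Cebpa, Dusp14, Hpgds, Kcnab2, Kat2b, Rbl2, Bmf and Atf6. With the mean over a gene's probes in place of its probe with the highest mean signal, C3, Cdkn1a, Zfp975, E2f7, Rbl1, Bard1, Cdan1, Fosl2 and Jak3 were under 2-fold. With quantile normalization Ebi3 and Wfdc21 were under 2-fold, with the 75th percentile over detected probes Ebi3, Wfdc21 and Stat2, and with the median over detected probes Abcg1 and Atf6. In the columns that the value table labels knockdown, under 2-fold were Il23a, Il1rap, Clec7a, Bcl2l1, Pdgfrb and S100a8 on the higher side. On the lower side these were Pxk, Fcgr1, Id2, Id3, Fosl2, Jak3 and Kcnab2. Some genes given as under 2-fold reached it in an alternative on these arrays. They were Ptges (1.39 log2), H2-Eb1 (1.33) and Irf1 (1.01) upward and Foxm1 (-1.24), Mcm5 (-1.12), Ccnd1 (-1.08) and Ezh2 (-1.02) downward.

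Over all classes, promoter motifs were unevenly shared. Of the called genes, 583 higher and 446 lower matched a RefSeq window of 300 bases, as did 10151 detected genes called in neither direction. The NF-kB-like motif was in 4.63% of the higher genes, 12.7% of the 102 that were at least 8-fold higher, 1.12% of the lower and 1.5% of those called in neither direction, beside 1.45% of all genes. The interferon-type motif was in 18.7%, 28.4%, 8.74% and 9.44% in the same order, beside 12.1% of all genes. The AP-1 motif TGANTCA was in 13%, 18.6%, 7.40% and 6.33%, beside 8.97%. The TATA letters TATAAA were in 15.3%, 19.6%, 9.19% and 10.2%, beside 15.7%. The E2F-like motifs ran the other way, with 1.54% of the higher, 0 of the at least 8-fold higher, 8.07% of the lower and 3.04% of the genes called in neither direction. The CRE letters TGACGTCA were in 3.09%, 2.94%, 2.47% and 3.45%, beside 2.03%. The NF-Y letters were in 46.9% of the lower and 42.8% of the genes called in neither direction, and the CHR-like letters in 15.7% and 15.1%. The class at 8-fold and the genes whose windows are shown were chosen after their values were seen, and no test was made of these shares.

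**Figure D5:**
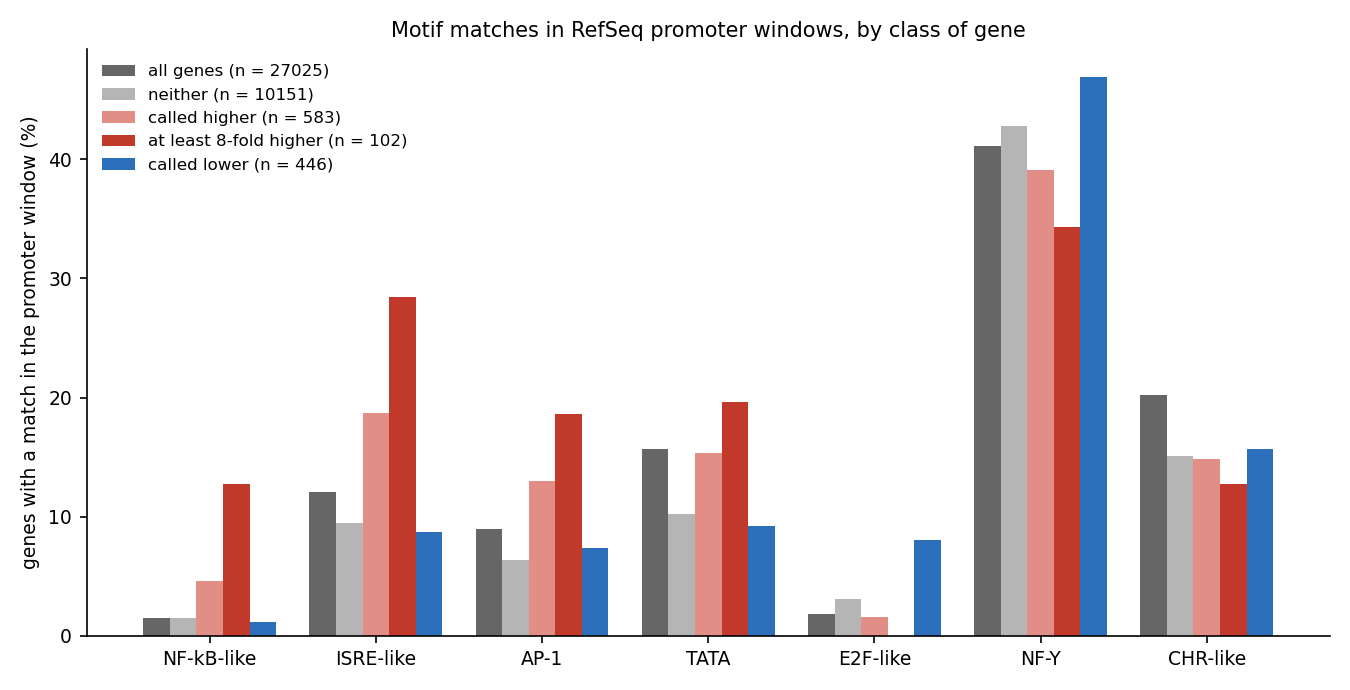
Percent of genes whose RefSeq promoter window holds each motif on either strand, for all genes with a window and for genes called in neither direction, called higher, at least 8-fold higher and called lower on the arrays labelled knockdown (number of genes in the legend). The NF-kB-like share is 12.7% among genes at least 8-fold higher and 1.45% over all genes, and the E2F-like share is 8.07% among lower genes.

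The same genes on the arrays labelled scramble are given for size only, since the difference between the responses has 0 residual degrees of freedom. Of the genes called higher, 821 were measured on all 4 arrays, with a median of 1.65 on the arrays labelled knockdown and 2.07 on those labelled scramble, and 597 were smaller on the former. Of the genes called lower, 627 had medians of -1.29 and -1.60, and 453 were smaller in size on the arrays labelled knockdown. Since the calls were made on the arrays labelled knockdown, the choice of genes favours larger values there. List medians over the same members were 2.57 and 3.35 for the interferon-stimulated effectors, 1.51 and 3.63 for the interferon-inducible GTPases, 2.88 and 3.90 for the proinflammatory cytokines, -1.02 and -1.12 for S phase and -0.53 and -0.66 for mitosis. Under the labels of the value table the lines change places in each of these pairs. These medians include bounds. On the arrays labelled knockdown 5 of 17 GTPases and 8 of 20 cytokines were bounds. Over genes measured on both of those arrays the medians were 1.82 for the GTPases and 2.07 for the cytokines. Medians without bounds were not computed for the arrays labelled scramble.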

How the data were processed

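RNA from each culture was labelled with Cy3 and hybridised to a 1-colour Agilent mouse array, and the 4 arrays share 1 slide and 1 scan. The deposited intensities are Agilent Feature Extraction 10.7.1.1 processed signals, subtracted for background and detrended within each array per the file headers, with no scaling between arrays. The series value table holds the authors' log2 values of the same arrays, whose normalization the labels and headers do not name.

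Control spots and spots marked as outliers were left out and spots of a probe were averaged. Each array's log2 values were set to the 75th percentile of its probes, and a gene with several probes was read from the one of highest mean signal. Probes were named through RefSeq accessions or symbols where these matched. Normexp background, quantile normalization, other percentiles, the filter on dim genes, the probe rule and the value table were tried as alternatives (limma 3.58.1, R 4.3.3). The call rule was tested on simulated data that held only the spread between spots, with changes planted in genes well above the floor. That simulation cannot speak to the spread of cultures, RNA extracts or labelling, or to bounds. The named genes are the 12 largest differences each way that hold with normexp and quantile, the 8 largest bounds each way, list members, members of runs and genes whose probes differ. Members and lists were chosen with earlier results of these data known. Some members of the lists are counted but not named or reported here.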

Additional observations from a re-analysis of the deposited data

Results flagged for a closer look

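Nod1, a receptor for bacterial cell wall fragments, was the 1 gene of the lists that was called in opposite directions on the 2 pairs of arrays. On the arrays labelled knockdown its bound was -1.31 on the log2 scale, lower under AEPS, and on the arrays labelled scramble it was 1.70, higher under AEPS. The difference was not tested, since each condition has 1 array, and both values rest on a bound because 1 array of each pair was below background.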

How the results depend on the processing

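The counts were recomputed under 10 alternatives, and 4 of those 20 values moved by more than 1.5 times. With no filter on dim genes 2005 genes were called higher and 1425 lower. With normexp background 385 were called lower beside 779. The value table's own knockdown columns gave 1342 lower. Of the calls, 57.1% were higher as reported, 64.6% with normexp, 52.9% with quantile and 50.2% with the 75th percentile of detected probes. Among named genes Cp was at -0.49 log2 with the mean of its probes, and Nod1 at 1.58 with those columns, which match the arrays labelled scramble. Of 410 list medians recomputed, 189 moved by more than the spread between spots. The cytokine median was 1.85 with normexp beside 2.88, and that of growth factors 0.91 with genes measured on both arrays beside 1.59. In the respiratory list 21 of 24 genes were below 0 with quantile, beside 12. The cause was not tested. With genes measured on both arrays only, the lists had 9 cytokines, 9 chemokines, 7 growth factors, 5 matrix genes, 3 lineage factors and 2 prostaglandin genes called higher, beside 17, 14, 13, 9, 5 and 4. With normexp and with the mean of probes, 3 lineage factors and 3 Fc or acute phase genes were called higher beside 5 and 5, and with normexp 2 cell cycle brakes were lower beside 4. With no filter 3 antigen presentation genes were higher beside 0 and 6 G protein-coupled receptor genes lower beside 1. In the value table's knockdown columns 8 mitosis genes, 8 brakes, 9 chromatin genes, 5 G protein-coupled receptor genes and 3 apoptosis genes were lower beside 0, 4, 5, 1 and 1. No paired analysis was possible because each group has 1 array and the arrays share a single replicate number. Without replicates no replicate could be left out. Signal over background limits the folds of genes that were dim on 1 array. This holds for the bounds and also for folds measured from just above the lowest intensity well above background. With normexp background Rsad2 (19.7 in DMEM) was at 3.59 log2 beside 5.61, and Tnfsf15 (20.5 in DMEM) at 2.65 beside 4.49.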
